A study of Mus musculus with 18 samples.

Results

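The genes described here are NRF2 (gene symbol Nfe2l2), its inhibitor Keap1 and 8 genes known as NRF2 targets: Nqo1, Hmox1, Gclc, Gclm, Txnrd1, Srxn1, Abcc4 and Gsr. They were chosen by name, with earlier results of these data known. Every probe that the platform annotation assigns to 1 of them was read. Of the 10 genes, 9 had a probe, 17 probes in all of the 45281 on the array and 9 of the 19057 genes with a probe. Gsr, which encodes glutathione reductase, had no probe under its symbol and was not analysed here. Detection p was under 0.05 on 18 of 18 arrays for 14 of the probes. The other 3, 1 each for Nfe2l2, Keap1 and Nqo1, were detected on 0 arrays and give no level, and the tests below cover the 14.

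NRF2 is a transcription factor that KEAP1 holds in the cytoplasm and passes on for degradation. Electrophiles and oxidants modify KEAP1, NRF2 then accumulates, pairs with a small MAF protein and binds antioxidant response elements in front of genes for glutathione synthesis, thioredoxin recycling, quinone reduction, heme breakdown and export. In liver these genes belong to the defence against reactive drug metabolites. Nqo1 is also known as a target of the aryl hydrocarbon receptor (AhR), a ligand-activated transcription factor that binds sites with the core GCGTG, and Nfe2l2 is itself known to be bound by AhR in mouse hepatoma cells.

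The arrays compared 2 lines made from AhR-/- hepatocytes of C57BL/6N mice that had been immortalised with a temperature-sensitive SV40 virus, tsA209. The reconstituted line carried the tetracycline repressor TetR and a HisMyc-tagged mouse AhR, both brought in by lentivirus. The AhR-null line carried TetR alone. Each line was kept for 8 h in 1 of 3 conditions: suspended in 1.68% methylcellulose after trypsin, treated with 10 µM YH439, a compound known to induce AhR target genes, or treated with 0.1% DMSO, the vehicle. All cells were confluent before treatment and were grown at 34 °C with 10% serum and 100 nM dexamethasone. This gave 6 groups of 3 arrays: reconstituted suspension, reconstituted YH439 and reconstituted DMSO, then null suspension, null YH439 and null DMSO. Trypsin, methylcellulose and loss of attachment came together and cannot be told apart, the labels do not say whether suspended cells received DMSO, and a difference between the lines is a difference between 1 line of each kind. The replicates are called biological, but whether they were separate cultures is not stated, so p-values measure the spread between these arrays, which may be technical.

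Between 42.0% and 44.6% of probes were detected per array. The median deposited intensity was 6.03 to 7.19 on the 6 dimmest arrays, which are replicate 1 of every reconstituted group and replicate 3 of every null group, and 8.78 to 11.9 on the other 12. Arrays with the same number within a line shared their deviations from the group means, so each change below was also fitted with the replicate number within the line as a block, and that value is given where it alters a call. The Ahr probe was detected on 1 of 18 arrays, a null DMSO array, and so does not check the reconstitution. Of 10 hepatocyte markers, 8 (Alb, Apoa1, Apob, Cps1, Cyp2e1, Fgb, Tat and Ttr) were detected on 0 arrays, Hnf4a on 10 and Serpina1a on 3. Of 8 mesenchymal markers 7 were detected on all 18. So were 2 of 4 bile duct markers (Krt19 and Sox9, with Krt7 on 12) and 2 of 4 macrophage markers (Cd14 and Csf1r). Of 5 endothelial markers 0 were detected on all 18. These markers do not settle the cell type, so the cells are described below as the 2 lines and not as hepatocytes.

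The RefSeq promoter table (GRCm38.p6, 250 bases before to 50 after each start site) held 10 windows for 7 of the 10 genes, all but Hmox1, Gclc and Gsr. Each was searched on both strands for TGACNNNGC, the core of the antioxidant response element, and for GCGTG, the core of the AhR element, and no base was shared between matches of both. TGACNNNGC stood in 6 of the 10 windows, covering 5 of the 7 genes, against 12.4% of all 32851 windows. GCGTG stood in 7 of the 10, also covering 5 genes, against 32.4% of all windows. Below are the windows of Gclm, Srxn1 and Nfe2l2, which rose in suspended reconstituted cells and hold a TGACNNNGC match in their 1 window, and of Nqo1, the gene with the largest fitted difference in response between the lines, which holds a match to neither motif. They are printed 5′ to 3′ on the gene's strand, with the TGACNNNGC match in capitals:
Gclm, chr3:122245307-122245606, plus strand: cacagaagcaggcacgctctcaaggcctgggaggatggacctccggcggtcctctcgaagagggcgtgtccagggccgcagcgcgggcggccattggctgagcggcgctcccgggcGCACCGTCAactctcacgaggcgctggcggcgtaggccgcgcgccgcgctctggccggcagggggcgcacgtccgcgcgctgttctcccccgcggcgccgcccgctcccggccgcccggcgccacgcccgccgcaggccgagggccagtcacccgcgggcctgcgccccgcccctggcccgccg
Srxn1, chr2:152105274-152105573, plus strand: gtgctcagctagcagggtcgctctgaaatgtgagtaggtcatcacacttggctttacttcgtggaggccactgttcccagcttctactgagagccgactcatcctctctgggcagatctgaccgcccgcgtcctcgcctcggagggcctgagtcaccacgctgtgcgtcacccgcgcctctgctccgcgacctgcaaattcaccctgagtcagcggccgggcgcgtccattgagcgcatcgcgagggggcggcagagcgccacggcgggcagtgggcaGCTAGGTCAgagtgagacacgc
Nfe2l2, chr2:75704614-75704913, minus strand: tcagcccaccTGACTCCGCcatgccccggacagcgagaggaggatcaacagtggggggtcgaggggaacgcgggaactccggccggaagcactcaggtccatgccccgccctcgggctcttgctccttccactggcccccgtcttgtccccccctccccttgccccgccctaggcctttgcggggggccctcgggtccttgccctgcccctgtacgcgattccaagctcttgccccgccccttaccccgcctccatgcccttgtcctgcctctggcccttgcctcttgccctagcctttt
Nqo1, chr8:107403156-107403455, minus strand: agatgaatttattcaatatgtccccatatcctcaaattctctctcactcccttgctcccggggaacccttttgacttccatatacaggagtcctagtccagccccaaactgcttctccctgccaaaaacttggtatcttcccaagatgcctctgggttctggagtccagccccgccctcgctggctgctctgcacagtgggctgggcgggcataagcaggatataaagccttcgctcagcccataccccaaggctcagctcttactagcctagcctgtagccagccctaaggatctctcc
Relative to the start site, the match lay at positions -134 to -126 in Gclm, 29 to 37 in Srxn1 and -240 to -232 in Nfe2l2. Abcc4 also rose in suspended reconstituted cells, and both of its windows, not printed here, hold a match. Txnrd1 holds a match in 1 window, at -92 to -84, and its change in these cells was called only with the block. Keap1 and Nqo1 hold no TGACNNNGC match, and Nqo1 rose in these cells while Keap1 was not called. Whether a match goes with the response was not tested. These matches are letters in a window and not measured binding sites, and a window without them says nothing about elements farther away.

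In suspended reconstituted cells 6 of the 9 measured genes rose against DMSO (Nfe2l2, Nqo1, Hmox1, Gclm, Srxn1 and Abcc4), and in suspended null cells 3 of 9 rose (Nfe2l2, Hmox1 and Gclm). None of the 14 probes fell in either comparison. By limma's moderated test with Benjamini-Hochberg adjustment over all 22203 probes kept, 8 of 14 probes passed in the reconstituted line and 3 of 14 in the null line. The shares of all probes that rose were 9.3% and 9.41%, and 19.6% and 18.8% passed in either direction. With the block 10 of 14 rose in the reconstituted line and 7 rose and 2 fell in the null line. Of all 22203 probes 41.9% and 40.8% were then called in either direction, 4285 and 4154 probes as higher. YH439 called 0 of 14 probes in each line, against 0.0856% of all probes in the reconstituted line and 0% in the null line, where 425 of all probes had an unadjusted p under 0.05. With the replicate block 3 of 14 rose with YH439 in the reconstituted line (Nfe2l2, Nqo1 and Gclc) and 0 of 14 in the null line. Of all probes 0.504% and 0.018% were then called in either direction, 90 and 1 probes as higher.

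Every suspension array read above every DMSO array of its line for 8 of 14 probes in the reconstituted line and 4 of 14 in the null line, against 18.8% and 13.7% of all probes. Every YH439 array did so for 5 of 14 and 1 of 14, against 4.08% and 1.96% of all probes. The 5 were those of Nfe2l2, Nqo1, Gclm and Abcc4 and 1 of Srxn1. The 1 in the null line was that of Nfe2l2.

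The median log2 change of the 9 genes was 0.84 for suspension in the reconstituted line, against -0.02 over all probes kept, and 0.34 in the null line, against -0.03. For YH439 the medians were 0.34 in the reconstituted line and 0.08 in the null line, against a median of about 0 over all probes in both. The suspension and YH439 comparisons of a line share its DMSO arrays.

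**Figure D1:**
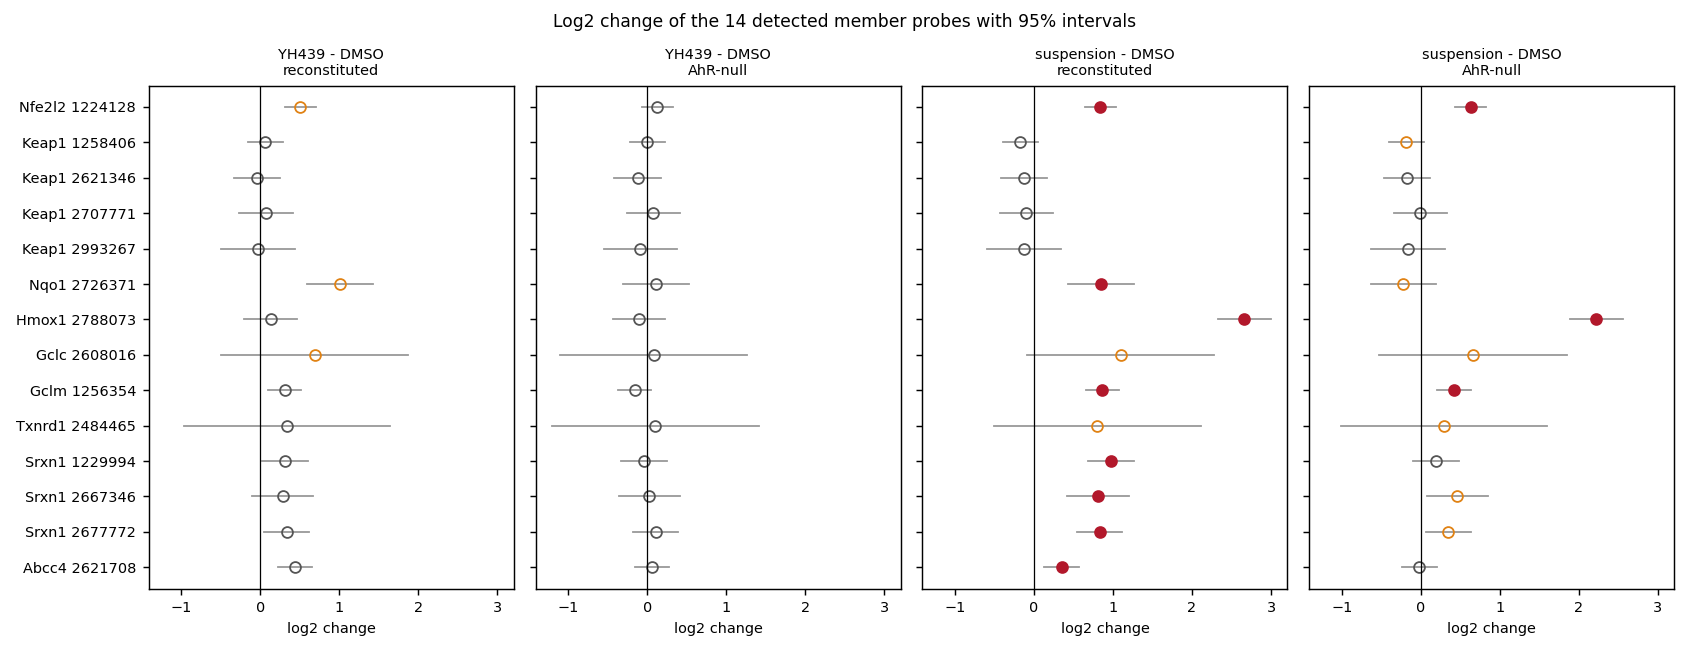
Log2 change of each of the 14 detected probes (rows) with its 95% interval in 4 comparisons (panels), as suspension minus DMSO or YH439 minus DMSO. Filled points passed the test, orange open points passed only with the replicate block, and grey open points passed neither. Suspension moved Hmox1 by 2.66 in the reconstituted and 2.22 in the null line, and the intervals of Gclc and Txnrd1 are the widest.

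Nfe2l2, which encodes NRF2, rose in suspended cells of both lines (mouse chromosome 2, 75675513 to 75704663, GRCm38.p6). In the reconstituted line its normalized log2 intensity was 9.66, 9.62 and 9.58 on the suspension arrays, 9.22, 9.32 and 9.32 on the YH439 arrays and 8.85, 8.77 and 8.73 on the DMSO arrays. In null cells it was 8.86, 8.94 and 9.01 with suspension, 8.39, 8.38 and 8.55 with YH439 and 8.36, 8.20 and 8.37 with DMSO. No suspension array of either line overlapped its DMSO arrays, and every YH439 array of both lines lay between the suspension and DMSO arrays of its line. In the null line the margin was narrow, with the lowest YH439 array at 8.38 and the highest DMSO array at 8.37.

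Against DMSO the suspension change of Nfe2l2 was 0.84 ± 0.09 (log2, SE; 1.79-fold, adjusted p = 1.25e-05 by limma) in the reconstituted line and 0.63 ± 0.09 (1.55-fold, adjusted p = 0.000194) in the null line. The null call ended with median scaling (adjusted p = 0.126). With YH439 the reconstituted line changed by 0.51 (95% interval 0.31 to 0.70), with an adjusted p of 0.0579 that missed the threshold. It passed in 9 of 27 alternatives, the block among them (adjusted p = 0.00642), with adjusted p from 0.00562 to 1.00 over the 27. The null line changed by 0.13 (95% interval -0.07 to 0.32, adjusted p = 1.00). The 2 YH439 changes differed by 0.38 (95% interval 0.10 to 0.65), which was not called (adjusted p = 1.00 without and 0.392 with the block).

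Keap1, the inhibitor and sensor of the pair, was read by 4 detected probes and none passed in any of the 9 comparisons over all arrays without the block (chromosome 9, 21229730 to 21239332). The brightest probe averaged 10.11 ± 0.14 with suspension, 10.22 ± 0.17 with YH439 and 10.24 ± 0.10 with DMSO in the reconstituted line (SD, n = 3). In the null line the averages were 10.11 ± 0.43, 10.19 ± 0.40 and 10.28 ± 0.30. For this probe the suspension change was -0.13 (95% interval -0.60 to 0.34) in the reconstituted line and -0.17 (-0.63 to 0.30) in the null line.

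The tightest of the Keap1 probes, ILMN_1258406, read 9.93, 9.95 and 9.73 on suspended reconstituted arrays against 9.98, 10.12 and 10.03 with DMSO. It read 9.65, 9.65 and 9.76 on suspended null arrays against 9.77, 9.82 and 10.03 with DMSO. The groups did not overlap in either line. It was the 1 of 14 probes that read lower on every suspension array than on every DMSO array. Of all probes 23.1% did so in the reconstituted and 15.4% in the null line. Its change was -0.17 in the reconstituted line (adjusted p = 0.28, and 0.06 with the block) and -0.19 in the null line (adjusted p = 0.246, and 0.0471 with the block, which called it). The other 3 probes were called in neither line with the block.

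**Figure D2:**
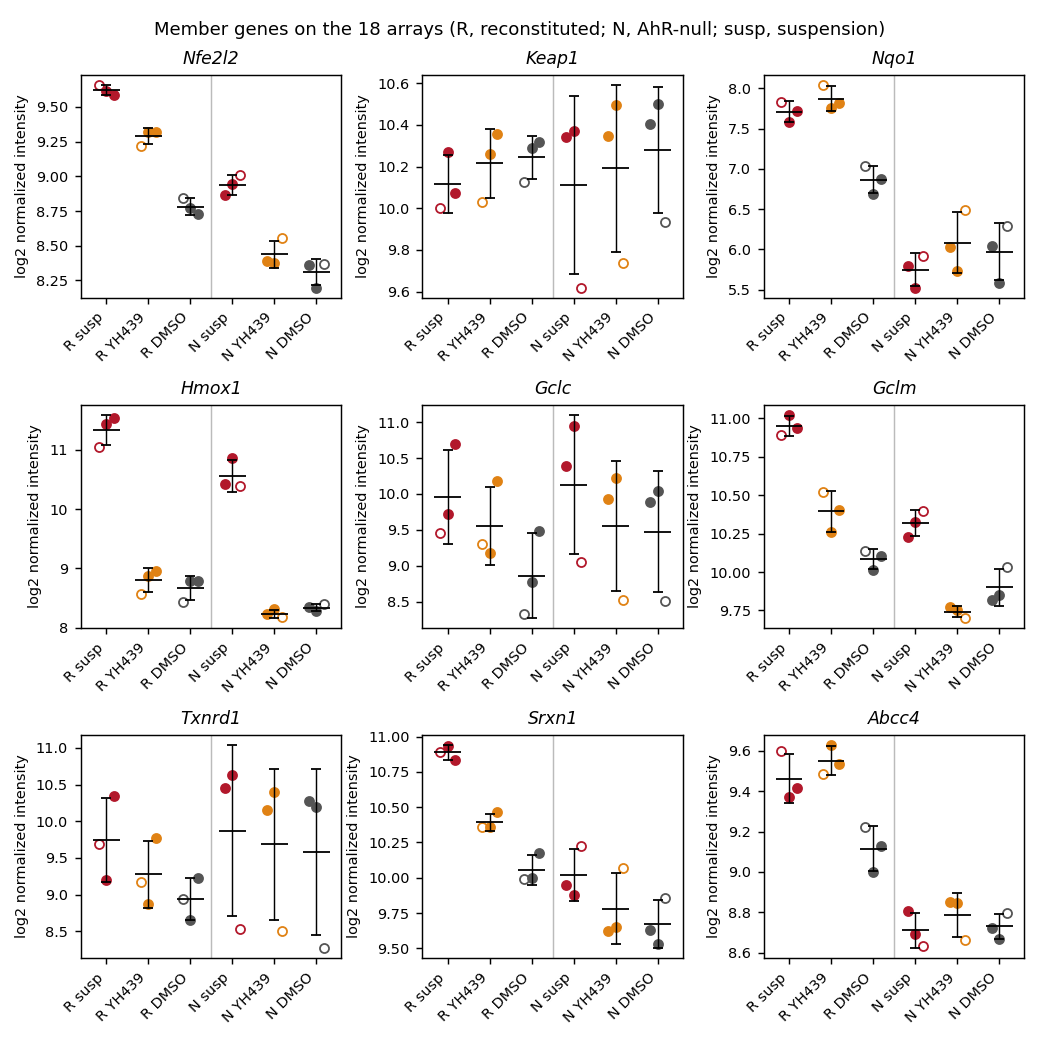
Normalized log2 intensity of the 9 genes on the 18 arrays, 1 panel a gene, by its brightest detected probe. Each point is an array, open points are the 6 dimmest arrays, and bars give the mean and SD of the 3 arrays of a group; R is reconstituted, N is AhR-null. Hmox1 stands high only in the 2 suspension groups, while Gclc and Txnrd1 spread widely within each group.

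Nqo1, a quinone reductase, rose with suspension in the reconstituted line, and every reconstituted array read above every null array after normalization (chromosome 8, 107388225 to 107403205). Its deposited intensity was 160, 191 and 221 on reconstituted suspension arrays, 189, 238 and 223 with YH439 and 72.6, 97.0 and 112 with DMSO. Null arrays gave 51.1, 38.9 and 27.5 with suspension, 56.8, 45.3 and 41.4 with YH439 and 61.5, 38.6 and 47.3 with DMSO. Its highest detection p on any array was 0.0043. After normalization the log2 values were 7.84, 7.58 and 7.72 with suspension, 8.05, 7.76 and 7.82 with YH439 and 7.03, 6.69 and 6.88 with DMSO in the reconstituted line. The null arrays read 5.80, 5.53 and 5.92, then 6.03, 5.74 and 6.50, then 6.04, 5.59 and 6.29 in the same order of conditions. Every treated reconstituted array lay above every DMSO array of that line, and in the null line the 3 conditions overlapped.

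Suspension changed Nqo1 by 0.84 ± 0.20 in the reconstituted line (1.79-fold, adjusted p = 0.00644 by limma) and by -0.22 (95% interval -0.64 to 0.20, adjusted p = 0.507) in the null line. With the block the null value was called as a fall (adjusted p = 0.0439). YH439 changed it by 1.01 ± 0.20 (2.01-fold) in the reconstituted line, where the adjusted p was 0.0875 and, with the block, 0.000113. In the null line the YH439 change was 0.11 (95% interval -0.30 to 0.53). All 3 same-numbered pairs of reconstituted arrays showed a difference between 0.94 and 1.07 with YH439, and between 0.80 and 0.89 with suspension. The null pairs ran between -0.01 and 0.21 with YH439 and between -0.36 and -0.06 with suspension.

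The difference between the lines in Nqo1's response was 0.89 for YH439 (95% interval 0.30 to 1.48) and 1.07 for suspension (95% interval 0.48 to 1.66). Neither passed by limma without the block (adjusted p = 1.00 for both, with 4 and 0 probes called of all). With the block both passed, at adjusted p = 0.0147 and 0.00635, among 19 probes called in each. Of the 14 probes, Nqo1 was the 1 called in either of these comparisons. Between suspension and YH439 in the reconstituted line it differed by -0.16 (95% interval -0.58 to 0.26, adjusted p = 0.667).

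**Figure D3:**
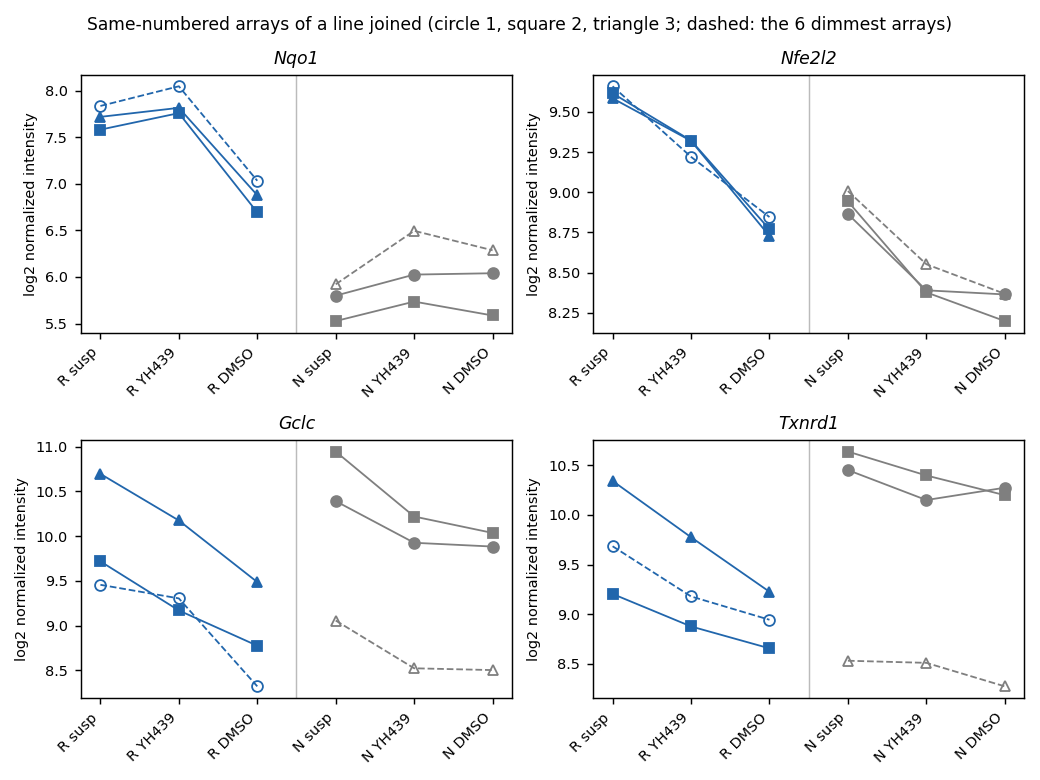
Normalized log2 intensity of Nqo1, Nfe2l2, Gclc and Txnrd1 with same-numbered arrays of a line joined; circle, square and triangle are replicates 1, 2 and 3, blue is reconstituted (R), grey is AhR-null (N), and dashed lines are the 6 dimmest arrays. For Gclc and Txnrd1 replicate 3 is the highest of the reconstituted and the lowest of the null arrays in each condition, and the lines of replicates 1 and 2 cross for reconstituted Gclc and null Txnrd1. Null replicate 3 of Txnrd1 reads 8.27 with DMSO, where replicates 1 and 2 read 10.27 and 10.20.

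Hmox1, which encodes heme oxygenase 1 and turns heme into biliverdin, iron and carbon monoxide, rose most of the 9 genes in suspended cells of both lines (chromosome 8, 75093618 to 75100593). Its deposited intensity was 1650, 2918 and 3025 on reconstituted suspension arrays, 281, 539 and 506 with YH439 and 219, 481 and 466 with DMSO. On null arrays it was 1595, 2087 and 859 with suspension, 326, 359 and 163 with YH439 and 384, 346 and 258 with DMSO. The lowest suspension array of each line stood above the highest array of its other conditions.

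On the log2 scale suspension changed Hmox1 by 2.66 ± 0.16 in the reconstituted line (6.34-fold, adjusted p = 1.54e-08) and by 2.22 ± 0.16 in the null line (4.65-fold, adjusted p = 1.46e-07). The line difference in that response was 0.45 (95% interval -0.03 to 0.92, adjusted p = 1.00, and 0.34 with the block). YH439 changed Hmox1 by 0.13 (95% interval -0.20 to 0.47) in the reconstituted and by -0.10 (-0.44 to 0.23) in the null line. Suspension over YH439 was 2.53 in the reconstituted line (adjusted p = 3.12e-08) and 2.32 in the null line (adjusted p = 9.15e-08).

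The 2 subunits of glutamate-cysteine ligase, which makes the first and rate-limiting step of glutathione synthesis, differed in how closely the arrays of a group lay. Gclm, the modifier subunit, rose with suspension in both lines (chromosome 3, 122245487 to 122267215). It read 10.89, 11.02 and 10.94 with suspension, 10.52, 10.26 and 10.41 with YH439 and 10.14, 10.01 and 10.11 with DMSO in the reconstituted line. The null arrays read 10.23, 10.33 and 10.40 with suspension, 9.77, 9.76 and 9.70 with YH439 and 9.82, 9.85 and 10.04 with DMSO. With YH439 every reconstituted array lay above, and every null array below, the DMSO arrays of its line. Of all probes 4.08% stood higher in this way in the reconstituted line and 2.4% lower in the null line.

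The suspension change of Gclm was 0.87 ± 0.10 in the reconstituted line (1.82-fold, adjusted p = 1.91e-05) and 0.42 ± 0.10 in the null line (1.34-fold, adjusted p = 0.00757). The null call ended with median scaling (adjusted p = 0.432) and when only the groups compared were fitted (adjusted p = 0.121). YH439 gave 0.31 (95% interval 0.10 to 0.52) in the reconstituted and -0.16 (-0.37 to 0.05) in the null line, neither called. The difference of these was 0.47 (95% interval 0.17 to 0.76), with adjusted p = 1.00 and, with the block, 0.373.

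Gclc, the catalytic subunit, varied widely with replicate number (chromosome 9, 77754535 to 77794489). In the reconstituted line it read 9.46, 9.72 and 10.70 with suspension, 9.31, 9.17 and 10.18 with YH439 and 8.32, 8.78 and 9.49 with DMSO. On null arrays it read 10.39, 10.95 and 9.06 with suspension, 9.93, 10.22 and 8.52 with YH439 and 9.88, 10.04 and 8.50 with DMSO. Replicate 3 was the highest of each reconstituted group and the lowest of each null group. Within a number, suspension was above DMSO in 3 of 3 pairs of each line.

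The suspension change of Gclc was 1.10 (95% interval -0.09 to 2.28, adjusted p = 0.201) in the reconstituted line and 0.66 (-0.53 to 1.84, adjusted p = 0.485) in the null line. With the block both were called, at adjusted p = 1.22e-05 and 0.000526, with intervals of 0.86 to 1.33 and 0.42 to 0.89. With YH439 the reconstituted change was 0.69 (adjusted p = 1.00, and 0.0155 with the block) and the null change was 0.08 (adjusted p = 1.00, and 0.946 with the block). The line difference in the YH439 response, 0.61, was not called with the block (adjusted p = 0.373).

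Txnrd1, the cytosolic thioredoxin reductase, showed the same split by replicate number (chromosome 10, 82833951 to 82897724). Reconstituted arrays read 9.68, 9.20 and 10.34 with suspension, 9.18, 8.88 and 9.78 with YH439 and 8.94, 8.66 and 9.23 with DMSO. Null arrays read 10.45, 10.64 and 8.53 with suspension, 10.15, 10.40 and 8.51 with YH439 and 10.27, 10.20 and 8.27 with DMSO. Null replicate 3, one of the dimmest arrays in each condition, lay below every reconstituted array in its condition.

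Suspension changed Txnrd1 by 0.80 in the reconstituted line (95% interval -0.51 to 2.11, adjusted p = 0.427) and by 0.29 in the null line (-1.02 to 1.60, adjusted p = 0.817). With the block both were called, at adjusted p = 9.84e-05 and 0.0443. YH439 gave 0.33 in the reconstituted and 0.10 in the null line, not called with or without the block. The Keap1, Srxn1 and Nqo1 values of the same arrays did not show a gap of this size between replicate 3 and the others of the null line.

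Srxn1, sulfiredoxin, which repairs over-oxidised peroxiredoxins, was read by 3 probes that all rose with suspension in the reconstituted line (chromosome 2, 152105524 to 152111376). The brightest, ILMN_2677772, read 10.89, 10.94 and 10.83 on reconstituted suspension arrays, 10.36, 10.36 and 10.46 with YH439 and 9.99, 10.00 and 10.18 with DMSO. On null arrays it read 9.95, 9.88 and 10.23 with suspension, 9.62, 9.65 and 10.07 with YH439 and 9.63, 9.53 and 9.86 with DMSO. The reconstituted conditions stood apart with YH439 between the other two, and the null suspension arrays lay just above the DMSO arrays.

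In the reconstituted line the suspension changes of the Srxn1 probes were 0.83, 0.81 and 0.98 (adjusted p = 0.000435, 0.00513 and 0.000123 for ILMN_2677772, ILMN_2667346 and ILMN_1229994). In the null line they were 0.34, 0.46 and 0.19, none called (adjusted p = 0.0896, 0.0939 and 0.399). The block called the first and second of these (adjusted p = 0.00257 and 0.000558) and not ILMN_1229994 (adjusted p = 0.19). The calls, and not the direction, thus differed between the probes in the null line. The difference between the lines was 0.79 for ILMN_1229994 (95% interval 0.38 to 1.20), with adjusted p = 0.927 and, with the block, 0.134. YH439 gave 0.28 to 0.34 over the 3 probes in the reconstituted line and -0.04 to 0.11 in the null line, none called.

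Abcc4, an exporter of organic anions and conjugates also known as MRP4, read 9.60, 9.37 and 9.42 on reconstituted suspension arrays, 9.49, 9.63 and 9.54 with YH439 and 9.22, 9.00 and 9.13 with DMSO (chromosome 14, 118482692 to 118707856). The null arrays read 8.81, 8.69 and 8.64, then 8.85, 8.84 and 8.66, then 8.72, 8.67 and 8.80 in the same order. Both treatments lay above DMSO on every reconstituted array, while the null conditions overlapped. Suspension changed it by 0.35 ± 0.10 in the reconstituted line (1.27-fold, adjusted p = 0.0252), a call that 6 of 27 alternatives ended, with adjusted p from 0.00714 to 0.427 over them. Those 6 were median scaling, fitting only the groups compared, and leaving out reconstituted DMSO replicate 2 or 3 or reconstituted suspension replicate 1 or 3. In the null line the change was -0.02 (95% interval -0.24 to 0.20). YH439 gave 0.44 in the reconstituted line (95% interval 0.22 to 0.65, adjusted p = 0.281, and 0.0599 with the block) and 0.06 in the null line (-0.16 to 0.27).

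Set against each other, the response of the reconstituted line minus that of the null line was above 0 for 9 of 9 genes in both treatments, each by its brightest probe, with medians of 0.38 for YH439 and 0.45 for suspension, and about 0 over all probes for each. By probe it was above 0 for 13 of 14 in each, the exception being Keap1 ILMN_2707771 at -0.0045 and -0.091. Of the 9 genes, 3 changed sign in some of the 27 alternatives: Keap1 in 5 for YH439 and 6 for suspension, Txnrd1 in 4 and 1, and Gclc in 0 and 1. Median scaling put the median of all probes at 0.15 for YH439 and 0.11 for suspension. Over all 22203 probes, 10985 were above 0 for YH439 and 10934 for suspension. Of the 14 probes 0 passed this test in either treatment, against 0.018% and 0% of all probes called, where 595 of all probes had an unadjusted p under 0.05 for suspension and 385 for YH439. With the block 1 of 14, Nqo1, passed in each, against 0.0856% of all probes in each. The 2 differences share the DMSO arrays of both lines. That more genes passed in 1 line than in the other is therefore not shown to be a difference between the lines, except for Nqo1 with the block.

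**Figure D4:**
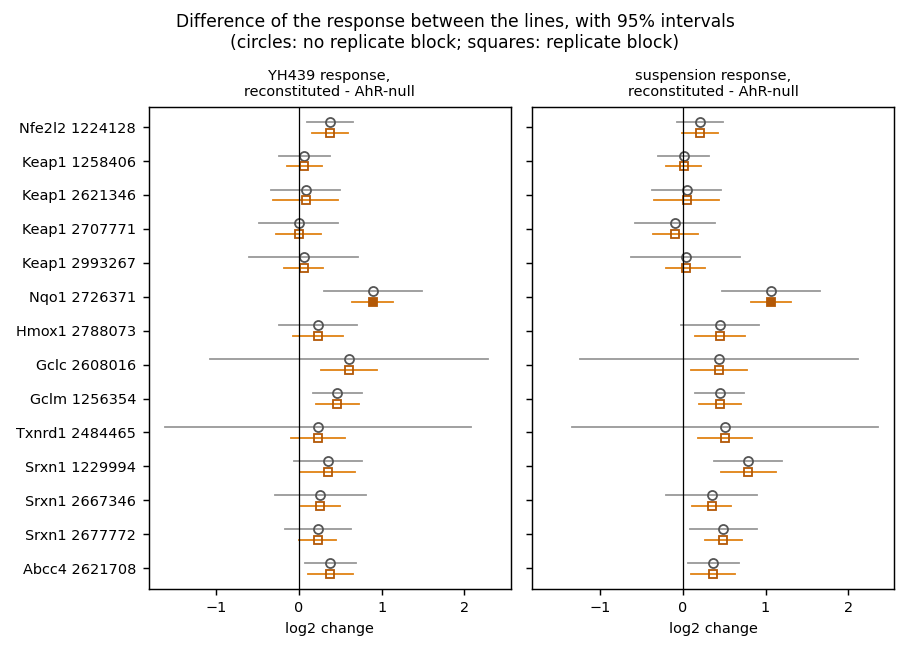
Response of reconstituted cells minus response of AhR-null cells (log2) for the 14 probes, with 95% intervals, for YH439 (left) and suspension (right). Circles are without and squares with the replicate block, and filled symbols passed the test. The filled squares are those of Nqo1, at 0.89 and 1.07.

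Under DMSO alone, 1 of 14 probes was called between the lines, against 0.342% of all probes, and 6 of 14 read higher on every reconstituted array, against 8.16% of all probes. Nfe2l2 was higher in reconstituted cells by 0.47 ± 0.09 (1.39-fold, adjusted p = 0.0378), on arrays that did not overlap, but 18 of 27 alternatives ended the call, with adjusted p from 0.00776 to 0.977. Among the 6 dimmest arrays the Nfe2l2 difference under DMSO was 0.48, from 1 array of each line, and among the other arrays 0.47. Median scaling, fitting only the groups compared and the replicate number as a block across the lines ended the call. So did leaving out any 1 of the 9 reconstituted arrays or the 3 null DMSO arrays. Null YH439 replicate 1 or 2 or null suspension replicate 2 did the same when left out.

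Nqo1 differed between the lines under DMSO by 0.90 (95% interval 0.48 to 1.31, adjusted p = 0.0833), with 0.75 on the dimmest arrays and 0.97 on the others. It passed without the 6 dimmest arrays and when null DMSO replicate 3 or null YH439 replicate 3 was left out. With the replicate number as a block across the lines it also passed (adjusted p = 0.0105). The lowest adjusted p over the alternatives was 0.0072. Abcc4 differed by 0.39 (adjusted p = 0.204), with 0.43 on the dimmest and 0.37 on the other arrays. The dimmest arrays under DMSO are 1 of each line, so each value on them compares 1 array with 1. Txnrd1 differed in sign between them and the other arrays. It was -0.64 over all arrays, 0.67 on the dimmest and -1.30 on the others, where it was called as lower (adjusted p = 0.0333). Gclc was -0.61 over all arrays, -0.18 on the dimmest and -0.83 on the others (adjusted p = 0.697 over all). Without the 6 dimmest arrays 4858 of all probes were called between the lines, against 76 with them, and the calls then included Nfe2l2, Nqo1, Hmox1, Abcc4, the 3 Srxn1 probes and Keap1 ILMN_2707771 as higher and Txnrd1 as lower in reconstituted cells. The dim arrays carry different replicate numbers in each line, and the part of brightness in these differences was not tested.

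Between the treatments, suspension exceeded YH439 for 5 of 14 probes in the reconstituted line (4 of 9 genes: Nfe2l2, Hmox1, Gclm and Srxn1) and for 3 of 14 in the null line (Nfe2l2, Hmox1 and Gclm). Of all probes 17.7% and 17.8% passed in these comparisons, 8.65% and 8.88% as higher. Nfe2l2 was higher by 0.33 (adjusted p = 0.0195) in the reconstituted and by 0.50 (adjusted p = 0.00135) in the null line. Gclm was higher by 0.56 (adjusted p = 0.00102) and 0.57 (adjusted p = 0.0008). Srxn1 was higher in the reconstituted line by 0.66 (ILMN_1229994, adjusted p = 0.00303) and 0.49 (ILMN_2677772, adjusted p = 0.0179). Median scaling ended all 6 of these calls, fitting only the groups compared ended both in the null line, and the reconstituted Nfe2l2 call also ended without YH439 replicate 1 or suspension replicate 1 or 2 of that line. The ILMN_2677772 call ended without replicate 1 or 2 of either of those groups. With the block 8 probes were higher and 1, a Keap1 probe, was lower in the reconstituted line. In the null line 6 were higher and 2 lower. Of all probes 39.4% and 39.9% were then called in either direction, 3987 and 4067 probes as higher. The 2 lower in the null line were Keap1 ILMN_1258406, at -0.19 (adjusted p = 0.0465 with the block), and Nqo1, at -0.34 (adjusted p = 0.00567 with the block).

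Other genes of the pathway, 73 on 7 lists, 62 of them detected and tested, moved in both directions in suspended cells. In the reconstituted line 12 of 62 rose and 8 fell, where 9.3% of all probes rose and 10.3% fell. In the null line 11 rose and 7 fell, where 9.41% of all probes rose and 9.37% fell. The medians were 0.09 and -0.03, against -0.02 and -0.03 over all probes. With YH439 0 of 62 passed in either line, and 0 passed between the lines under DMSO. These lists were put together with earlier results of these arrays known.

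Among 11 partners and regulators of NRF2, 4 rose with suspension in each line and 0 fell, where 9.3% of all probes rose in the reconstituted and 9.41% in the null line. Sqstm1, the autophagy receptor p62 that binds KEAP1, rose by 1.59 in the reconstituted and 1.63 in the null line. Maff and Mafg, small MAF partners, rose by 2.00 and 0.86 in the reconstituted and by 1.84 and 0.94 in the null line. Bach1, a repressor that competes for antioxidant response elements, rose by 0.48 and 0.34 (adjusted p = 0.00348 and 0.0280).

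Of 11 tested genes of glutathione supply and use, 2 rose and 1 fell in each line, where 19.6% of all probes passed in either direction in the reconstituted and 18.8% in the null line, so these counts are near the share of all probes. Slc7a11, the cystine importer, rose by 1.35 in the reconstituted and 1.57 in the null line, and Chac1, which breaks glutathione down and is known as a stress-response gene, rose by 2.44 and 2.45. Glrx, glutaredoxin, fell by 0.98 and 0.89. Of 10 thioredoxin and peroxiredoxin genes, 1 rose and 4 fell in each line, where 10.3% and 9.37% of all probes fell. Sesn2, a stress-induced regulator, rose by 1.56 and 1.69, while Sesn1, of the same family, fell by 1.20 and 0.67. Txnip, the inhibitor of thioredoxin, fell by 1.04 and 0.80, and the mitochondrial Prdx3 and Txnrd2 fell by 0.62 and 0.42 in the reconstituted and by 0.61 and 0.60 in the null line.

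Of 15 genes of conjugation and carbonyl reduction, 5 rose and 1 fell in the reconstituted line and 3 rose and 0 fell in the null line, against the same 19.6% and 18.8% of all probes called. Gsta1 and Gsta2, glutathione transferases, rose by 2.79 and 2.64 in the reconstituted and by 2.28 and 1.81 in the null line. These are near-identical paralogs whose probes may not tell them apart. Gsta4 rose by 0.97 and 0.74, and Gsta3 rose by 0.52 in the reconstituted line (adjusted p = 0.00139) and was at 0.27 in the null line (adjusted p = 0.0724). The other 2 called in the reconstituted line were named after their values were seen: Cbr3, a carbonyl reductase, rose by 0.33, and Nqo2, the relative of Nqo1, fell by 0.63. Of 9 genes of heme and iron handling, 0 rose and 1 fell in the reconstituted line and 1 rose and 1 fell in the null line. Blvra, which reduces the biliverdin made by heme oxygenase, fell by 0.66 and 0.70, and Slc40a1, the iron exporter, rose by 0.68 in the null line. Of 3 other ABCC exporters 1 fell in each line, Abcc3, by 1.09 and 0.77, and of 3 superoxide and peroxide enzymes 0 passed. The share of all probes called was 19.6% and 18.8% for these 3 lists too.

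**Figure D5:**
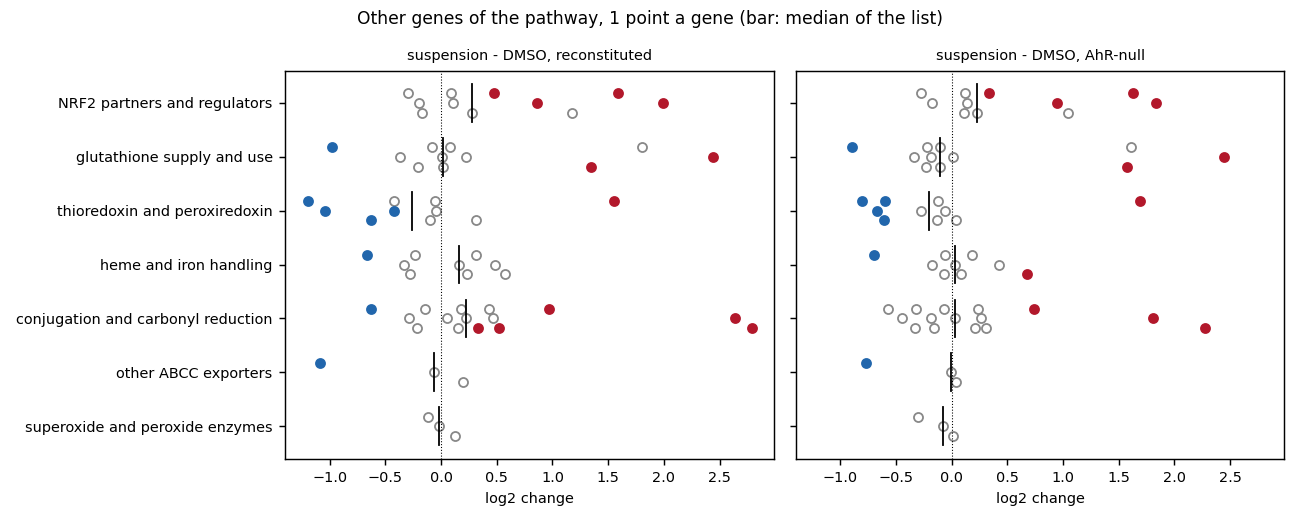
Log2 change of the 62 other pathway genes with suspension against DMSO, 1 point a gene by list, in the reconstituted (left) and AhR-null line (right). Red points rose, blue points fell, open points did not pass, and the bar is the median of the list. Points lie on both sides of 0 in most lists, with Gsta1 the highest at 2.79 in the reconstituted line.

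For comparison with Nqo1, 2 of 4 tested AhR target genes rose with YH439 in the reconstituted line and 0 of 4 in the null line, against 0.0856% and 0% of all probes called. Aldh3a1, an aldehyde dehydrogenase, rose by 2.27 (adjusted p = 1.19e-06) and Tiparp, a feedback inhibitor of AhR, by 1.49 (adjusted p = 0.00288). Cyp1b1 had a change of 1.04 (adjusted p = 0.518), close in size to that of Nqo1. In suspended reconstituted cells 2 of 4 rose and 0 fell, Aldh3a1 by 1.61 and Tiparp by 1.40. In suspended null cells 1 rose and 1 fell: Tiparp rose by 0.93 (adjusted p = 0.00301) and Cyp1b1 fell by 1.10 (adjusted p = 0.00913), while Aldh3a1 was at 0.22 (adjusted p = 0.343). The share of all probes called in these comparisons was 19.6% and 18.8%, and 0 of the 4 passed the test of the difference between the lines in the suspension response (lowest adjusted p = 0.0506, for Aldh3a1). For YH439 1 of 4 passed it, Aldh3a1, by 2.10 (adjusted p = 0.000509).

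Over the 6 group means, each centred on its own mean, the genes whose pattern lay nearest to Nqo1 among 13754 probes were Fgf5, Cyp1b1 and Slc22a23, with root mean squared differences of 0.34, 0.38 and 0.39 on the log2 scale. Their patterns rest on the same 18 arrays. The centred means of Nqo1 were 1.00 with suspension, 1.16 with YH439 and 0.16 with DMSO in the reconstituted line and -0.96, -0.62 and -0.74 in the null line. In that order Fgf5 was at 0.46, 0.73, 0.41, -0.72, -0.42 and -0.46. Cyp1b1 was at 0.48, 1.10, 0.07, -1.25, -0.24 and -0.15. Slc22a23 was at 0.76, 0.75, -0.002, -0.16, -0.65 and -0.70. Being nearest therefore does not mean the same response to each treatment. The nearest to Hmox1 were Hilpda, Gadd45a and Trib3, at 0.16, 0.19 and 0.19. The centred means of Hmox1 were 2.01, -0.52 and -0.65 in the reconstituted and 1.23, -1.09 and -0.98 in the null line.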

How the data were processed

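RNA of the 18 samples was read on Illumina mouse BeadChips, which the submitters' processing notes say were read with BeadStudio. The deposited table gives, per probe and array, an intensity from which the authors had already subtracted background, not normalized between arrays, and a detection p-value. A second table of authors' processed intensity values has a floor of 20 and a median of 20 in every column. Its centring and floor show this, but the scaling method stays unknown, and it served only as an alternative. Genes were named by the platform annotation: 34885 probes name 1 gene, 18 several and 10378 none.

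The intensity values, as deposited, were corrected with limma's neqc (limma 3.58.1, R 4.3.3; normexp with negative controls inferred from detection p, offset 16), quantile normalized and put on the log2 scale. The 22203 probes with detection p under 0.05 on at least 3 of 18 arrays were fitted with a mean per group over all 18 arrays (12 residual degrees of freedom), with 9 comparisons, two-sided, Benjamini-Hochberg adjustment within each and a threshold of 0.05. Levels of different probes are not compared. The number of arrays limits the precision. The fit was tested on simulated data with independent errors on each array. That test does not cover deviations shared by same-numbered arrays.

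Replicate numbers come from the labels. All 18 same-numbered pairs within a line had a correlation of deviations over 0.1 (0.159 to 0.847), against 2 of 27 across lines. The block was therefore used within lines. Only the comparison of the lines under DMSO took the replicate number as a block across lines, for which these correlations give no ground. Pairs of other numbers passed 0.1 in 8 of 36 cases within a line and 34 of 54 across lines, and null replicates 1 and 2 correlated with each other (0.516 to 0.66) about as strongly as with their own number (0.542 to 0.724). No 2 arrays were duplicates. Named were every probe of the 10 genes, the brightest probe standing for a gene; of each pathway list up to 4 genes per suspension comparison with the smallest p among those that passed, besides 2 named after their values were seen; and the 3 genes most like Nqo1 and Hmox1. The genes and lists were chosen with earlier results of these data known. Alternatives changed the scaling, background, values, filter, level, samples fitted, block and arrays.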

Additional observations from a re-analysis of the deposited data

Results flagged for a closer look

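In 3 cases the line difference in response passed with the block, or all same-numbered pairs rose in 1 line and fell in the other. How many of all probes have such pairs was not counted, so pair directions alone do not show a difference between the lines. For Nqo1 the suspension response differed by 1.07 (reconstituted minus null, log2), with a rise in 3 of 3 reconstituted pairs and a fall in 3 of 3 null pairs. The null pairs ran from -0.36 to -0.06, and the null fall was called in 1 of 27 alternatives, the block. The line difference in this response is the value tested next. It passed with the replicate block (adjusted p = 0.00635) and not without it. The YH439 response of Nqo1 differed by 0.89, with a rise in 3 of 3 reconstituted and 2 of 3 null pairs, and it too passed only with the block (adjusted p = 0.0147). For Gclm the YH439 response differed by 0.47, with a rise in 3 of 3 reconstituted and a fall in 3 of 3 null pairs, and it passed neither without nor with the block (adjusted p = 1.00 and 0.373).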

How the results depend on the processing

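Of 126 values (14 probes in 9 comparisons), 20 were called; over 3357 alternative values 42 lost and 65 gained a call and 0 called values changed direction, while 102 uncalled values changed sign. Low signal over background limits Nqo1, at an intensity of 27.5 to 61.5 on null arrays. Calls over all probes follow, with 4351 and 4170 for suspension (reconstituted, then null), 19 and 0 for YH439, 3919 and 3955 for suspension over YH439, 76 for the lines under DMSO, and 4 and 0 for the line differences in the YH439 and suspension responses. Median scaling gave 2402 and 2678, 10 for YH439 in the reconstituted line, 2249 and 2051, 20 for the lines and 1 for the suspension difference; it put the median of all probes at -0.11 for YH439 and -0.10 for suspension in the null line, against about 0 and -0.03, and 39.8% of null suspension calls were then higher, against 50.1%. The authors' processed values gave 44 for YH439 in the reconstituted line, 16 for the suspension difference and 133 for the lines, with 58.9% of reconstituted suspension calls higher, against 47.5%. No background correction gave 1 for the suspension difference, and no filter gave 4 there and 1 for YH439 in the null line. The gene level, with fewer features tested, gave 2689 and 2524, 2436 and 2407, and 1 for the suspension difference. Fitting only the groups compared gave 12 for YH439 in the reconstituted line, 1197 for suspension and 761 for suspension over YH439 in the null line, 1 for the YH439 difference and 4 for the lines. The replicate block gave 9305 and 9063, 112 and 4, 8746 and 8851, and 19 for each line difference. For the lines under DMSO, whose samples share only a number, the block gave 77, with Nfe2l2 at adjusted p = 0.0546 and Nqo1 at 0.0105. Beyond the changes printed above, the block altered no call on the 14 probes except for Gclc, Txnrd1 and Srxn1 in suspension over YH439. Without the 6 dimmest arrays the counts were 7034 and 6719, 31 for YH439 in the reconstituted line, 6477 and 6430, and 4858 for the lines. Leaving out each array in turn gave 2999 to 5018 and 3093 to 4869 for suspension, 9 to 27 and 0 to 0 for YH439, 2694 to 4559 and 2863 to 4287 for suspension over YH439, 28 to 93 for the lines, and 1 to 4 and 0 to 2 for the line differences. The cause of these shifts was not tested.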
